A study of Rattus norvegicus with 38 samples.

Results

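Livers of 12-month-old rats from the 1,2-dibromo-2,4-dicyanobutane study were compared with livers of 6-month-old rats from the pulegone study. The 10 rats were taken by their titles from the 38 rats of the series: 5 whose titles begin with the first chemical and 12month, and 5 whose titles begin with the second and 6month. All 38 were untreated male Fischer 344 (F344) rats, an inbred strain, kept as sentinels beside long toxicity studies, so that each chemical names a study and not an exposure. The 12-month rats were about 58 weeks old and the 6-month rats about 32 weeks old. The left lobe of each liver was measured on an array of its own. In every array RNA of 1 rat, labelled with Cy5, was read beside a common Cy3 channel, an RNA pool of 63 such sentinels: 25 at about 32 weeks, 25 at about 58 weeks and 13 at about 84 weeks. Values of further untreated male Fischer 344 rats are set beside those of the 10: 5 rats of 12 months from the bis_2-chloroethoyl_methane study (about 58 weeks), and 5 rats of 6 months from each of the DMPT and Pyrogallol studies (about 32 weeks). Each study holds rats of 1 age, so in every comparison between ages the study and the age cannot be told apart.

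Hepatocytes make most of the proteins of blood plasma, which are folded and given their sugar chains in the endoplasmic reticulum (ER). They also hold the enzymes of urea, lipid, bile acid and drug metabolism. When unfolded proteins build up in the ER, the unfolded protein response raises its chaperones, among them Hspa5 (BiP) and Hsp90b1. Kupffer cells, the resident macrophages of the liver sinusoids, and other non-parenchymal cells make up the rest of the tissue. In male rats many liver enzymes follow a sex-dependent pattern set by growth hormone pulses, a pattern known to weaken with age.

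A deposited value is a score: the array's rat-over-pool value standardized so that the scores of each array have a mean near 0 and a standard deviation (SD) near 1 over the 20277 probes. A score of 1 therefore lies 1 SD of all probes of that array above 0, the array's mean, and a difference between groups is a difference in scores, not a fold change. The scores lay on an even grid, so that values before standardization could be recovered up to an assumed step of 0.001. Which logarithm they used is unknown, and such values are given below only as recovered log ratios, for the leading genes. A score unit stood for 0.213 to 0.307 recovered log ratio units in the 5 arrays of 12-month rats and for 0.254 to 0.475 in the 5 of pulegone rats. Since each score is set against a liver pool, it shows no absolute level, and the tissue label could not be checked against marker levels. Over all probes, pairs of arrays within the 12-month rats had a median correlation of 0.569 (0.382 to 0.735) and within the pulegone rats of 0.488 (0.353 to 0.739). Between the groups the median was 0.295, and all of the pairs were positive (0.058 to 0.501). With the DMPT and Pyrogallol arrays the 12-month arrays correlated at medians of -0.276 and -0.296, down to -0.480. Direction follows the dyes in the labels throughout.

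The comparison asked which liver transcripts differ between these 12-month and 6-month rats. Of 9650 genes, 2484 passed limma's adjusted p of 0.05 (25.7% of the genes tested), 1573 of them higher in the 12-month rats (16.3%) and 911 lower (9.44%). In 1832 genes (19%) the 5 and 5 rats did not overlap at all, 1190 with the 12-month rats above (12.3%) and 642 with them below (6.65%). The 1606 genes that did both, passing with no overlap, made up 16.6%. Over probes, 4733 of 20277 passed (23.3%). Leading the higher genes were the stress chaperone Hspa1a, the interleukin-6 receptor Il6r, the matricellular growth factor Ccn2 and the ER glycosylation enzyme Stt3a. Leading the lower genes were Nrep, the mitochondrial carrier Slc25a30 and the potassium channel Kcnk2. The other probes of Stt3a and Slc25a30 did not pass. The ER chaperones, the acute phase and coagulation proteins, antigen presentation, Kupffer cell markers and most metabolic lists had more higher than lower members, while cell cycle genes had more lower than higher members.

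**Figure D1:**
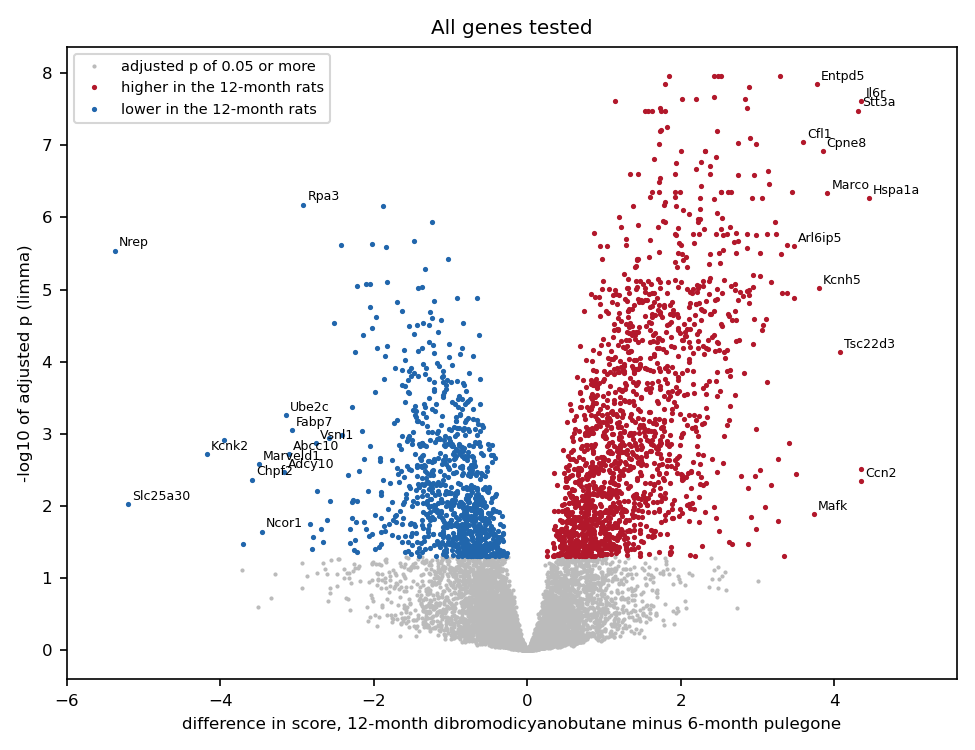
Each point is 1 of the 9650 genes, placed by its difference in score (12-month dibromodicyanobutane minus 6-month pulegone rats, 5 each) and by the negative log10 of limma's adjusted p. Red points (1573) passed and were higher in the 12-month rats, blue points (911) passed and were lower, and grey points did not pass; the labelled genes are the 24 named first in the text.

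Hspa1a (NCBI gene 24472), the stress-inducible HSP70 of the cytosol, whose near-identical copy Hspa1b a probe may not tell apart, had scores of 1.04, 3.29, 6.13, 3.39 and 1.65 in the 12-month rats, against -1.6, -2.19, -1.08, -1.13 and -0.757 in the pulegone rats. All 12-month rats lay above 0 and all pulegone rats below it, a difference of 4.45 (SE 0.548, limma adjusted p 5.45e-07) and of 1.26 in the recovered log ratio. Il6r (NCBI gene 24499), through which hepatocytes receive the signal for acute phase proteins, stood at 0.809, 2.38, 3.67, 3.25 and 3.05 in the 12-month rats, against -2.1, -3.04, -1.11, -1.33 and -1.03 in the pulegone rats. The groups were again on opposite sides of 0, with a difference of 4.36 (SE 0.437, limma adjusted p 2.44e-08) and a recovered log ratio difference of 1.28. For Ccn2 (NCBI gene 64032), a secreted growth factor of matrix formation, the 12-month scores were 1.82, 2.46, 2.6, 3.68 and 2.91, against -1.02, -1.99, -1.13, -3.17 and -0.97 in the pulegone rats. Its difference was 4.35 (SE 1.12, limma adjusted p 0.00445), and the groups did not overlap.

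Tsc22d3 (NCBI gene 83514), the glucocorticoid-induced leucine zipper gene, had scores of 0.412, 1.97, 3.28, 3.78 and 3.87 in the 12-month rats, against -3.32, -2.17, -0.624, -0.872 and -0.088 in the pulegone rats. The rats of each group were widely spread but did not overlap, with a difference of 4.08 (SE 0.714, limma adjusted p 7.28e-05); the other Tsc22d3 probe was also higher, by 1.64. Marco (NCBI gene 367391), a scavenger receptor of Kupffer and marginal zone macrophages, scored 1.4, 1.79, 2.59, 0.822 and 2.53 in the 12-month rats, against -0.78, -1.48, -1.79, -3.23 and -3.15 in the pulegone rats. That is a difference of 3.91 (SE 0.474, limma adjusted p 4.56e-07), and its other probe was higher by 2.01 (limma adjusted p 0.00233). Arl6ip5 (NCBI gene 66028), an ER membrane protein, stood at 2.94, 3.31, 3.93, 2.81 and 4.38 in the 12-month rats, against 0.111, 0.273, 1.05, -1.02 and -0.413 in the pulegone rats. The lowest 12-month rat lay above the highest pulegone rat, a difference of 3.48 (SE 0.472, limma adjusted p 2.47e-06), and of 3.22 on the other probe.

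The remaining 6 of the 12 leading higher genes were measured with differences from 3.59 to 4.31. Stt3a, a catalytic subunit of the oligosaccharyltransferase, differed by 4.31 (SE 0.443, limma adjusted p 3.32e-08), but its other probe by 0.005 (limma adjusted p 0.984), so the probes of this gene disagree. Cpne8, a calcium-dependent membrane-binding copine, was higher by 3.85, and by 1.52 on the other probe. Entpd5, an ER nucleotidase that helps glycoprotein folding, was higher by 3.77 (SE 0.361, limma adjusted p 1.42e-08), with 12-month scores from 0.666 to 2.98 and pulegone scores from -2.22 to -1.18. The potassium channel Kcnh5 was higher by 3.8 and the actin-severing protein Cfl1 by 3.59. Mafk, a small Maf transcription factor, had 12-month scores of 1.04, 1.16, 0.474, 1.05 and 1.67, against -4.59, -0.965, -3.53, -0.542 and -3.65 in the pulegone rats. For Mafk the 12-month rats were tightly grouped, while the pulegone rats were spread far below 0, with a difference of 3.73 (SE 1.11, limma adjusted p 0.0129).

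Nrep (NCBI gene 338475), a gene first described in regenerating neurons, had the largest fall of the genes that passed and did not overlap. Its scores were -2.29, -0.52, -3.74, -4.14 and -3.07 in the 12-month rats, against 1.67, 3.35, 1.45, 2.62 and 4.01 in the pulegone rats. Every 12-month rat lay below 0 and every pulegone rat above it, a difference of -5.37 (SE 0.735, limma adjusted p 2.88e-06) and of -1.6 in the recovered log ratio. Kcnk2 (NCBI gene 170899), a potassium leak channel, stood at -1.72, -0.767, 0.169, -0.378 and 0.067 in the 12-month rats, against 2.21, 3.11, 2.43, 3.46 and 7.03 in the pulegone rats. Of these, pulegone replicate 5 stood apart, and without it the difference of -4.17 (SE 0.978, limma adjusted p 0.0019) became -3.33 (limma adjusted p 0.013). Slc25a30 (NCBI gene 361074) scored -3.8, -2.04, -5.74, -3.68 and -3.53 in the 12-month rats, against 1.94, 7.7, -1.13, -1.27 and 0.011 in the pulegone rats. Pulegone replicate 2 alone was at 7.7; the difference was -5.21 (SE 1.48, limma adjusted p 0.00942), -3.64 without that rat, and -1.17 on the other probe (limma adjusted p 0.512).

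Genes of cell division and DNA replication were among those that lay furthest below the pulegone rats. Ube2c, the ubiquitin-conjugating enzyme of the anaphase-promoting complex, scored -0.995, -0.937, -2.1, 0.142 and -0.084 in the 12-month rats, against 1.69, 3.52, 1.13, 3.49 and 1.92 in the pulegone rats. Rpa3, a subunit of the protein that binds single-stranded DNA in replication, stood at -1, -0.038, -1.56, -0.14 and -0.196 in the 12-month rats, against 2.41, 2.02, 1.48, 2.75 and 2.99 in the pulegone rats. The pulegone rats were all above 0 in both genes, with differences of -3.14 (SE 0.651) for Ube2c and -2.92 (SE 0.363) for Rpa3. The other 6-month rats were not high in Ube2c, with means of -0.255 (DMPT) and -0.487 (Pyrogallol), against -0.794 in the 12-month rats. Against the mean of those 2 groups, Ube2c differed by -0.424 (limma adjusted p 0.549) and Rpa3 by -1.27 (limma adjusted p 0.000914). Fabp7, a fatty acid binding protein best known from brain, was lower, with a difference of -3.07 (SE 0.664, limma adjusted p 0.000875), and the membrane protein Marveld1 of -3.5 (SE 0.847, limma adjusted p 0.00259). Adcy10, the soluble adenylyl cyclase, was lower with a difference of -3.17 (SE 0.793).

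In Chpf2, a chondroitin sulfate enzyme, and in Abcc10, a drug transporter, both groups lay below 0. Abcc10 had scores of -3.91, -5.58, -6.18, -5.26 and -5.13 in the 12-month rats, against -2.86, -0.953, -2.23, -1.93 and -2.54 in the pulegone rats. Its difference was -3.11 (SE 0.728, limma adjusted p 0.00189) on the scores, but on the recovered log ratio it was -0.608 and did not pass (limma adjusted p 0.143). Chpf2 had a difference of -3.58 (SE 0.921, limma adjusted p 0.00429) on the scores, of -0.68 on the recovered log ratio (limma adjusted p 0.208), while its other probe stood at 0.561 (limma adjusted p 0.108). Ncor1, a corepressor of nuclear receptors, had a difference of -3.46 (SE 1.12, limma adjusted p 0.0226) on the probe used and of -0.901 on the recovered log ratio (limma adjusted p 0.0839). The other 5 Ncor1 probes ran from -0.841 to 0.868. The probe at 0.868 passed in the opposite direction (limma adjusted p 0.00401), so the probes of this gene disagree. On the probe used, the call was lost without pulegone replicate 2 or 4 or without 12-month replicate 2. Vsnl1, a neuronal calcium sensor, was lower, with a difference of -2.75, against a difference of -0.290 on its other probe, which did not pass (limma adjusted p 0.332).

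**Figure D2:**
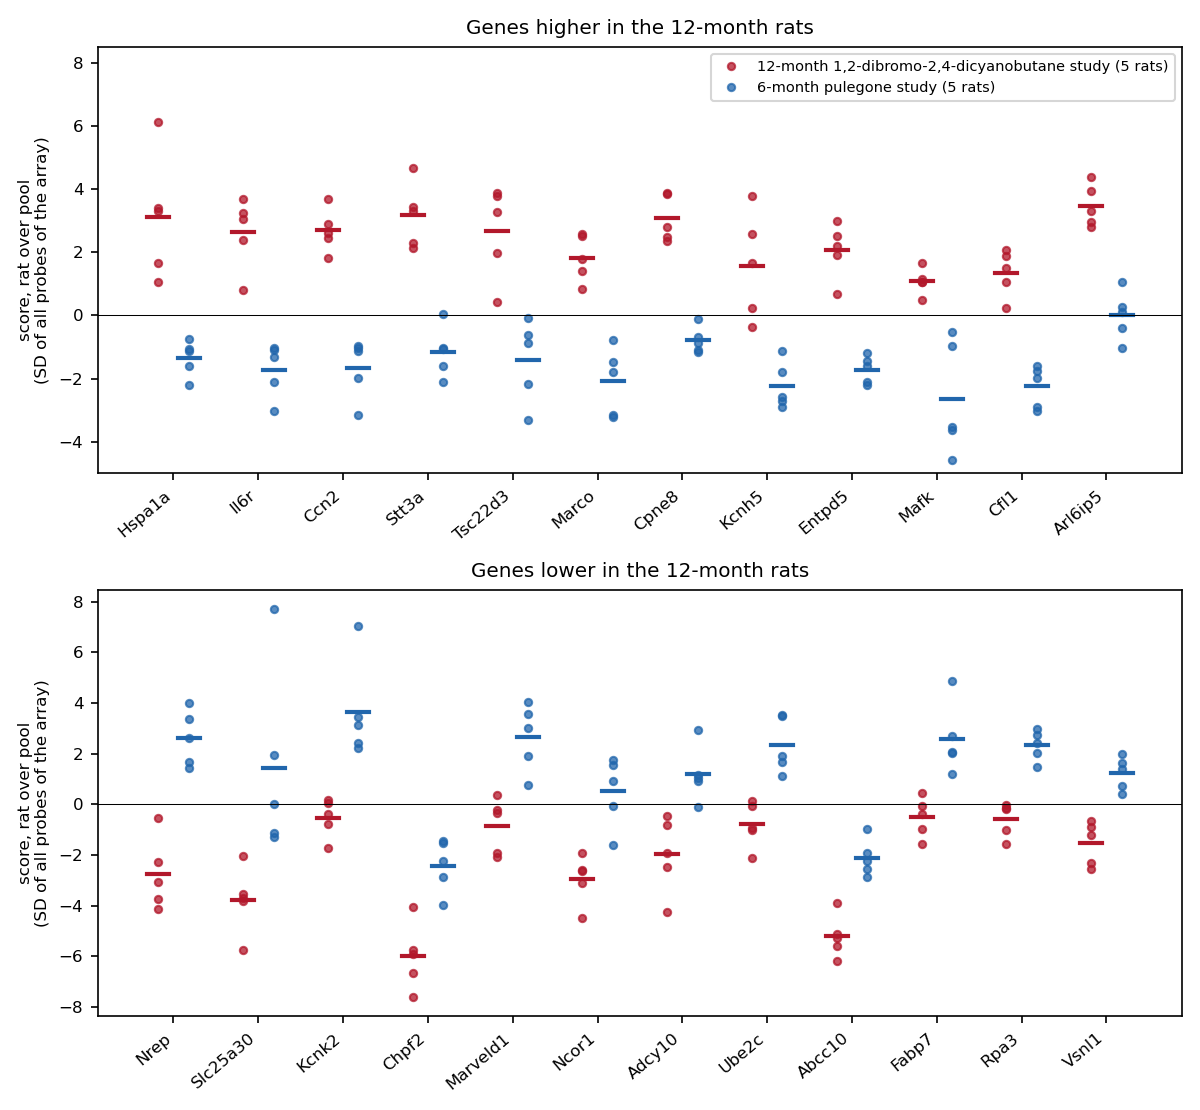
Scores of the 12 genes highest and the 12 lowest in the 12-month rats, among genes that passed and did not overlap, are shown for each rat, as the array's rat-over-pool value in SDs of all its probes. Red points (left) are the 5 rats of the 12-month 1,2-dibromo-2,4-dicyanobutane study, blue points (right) the 5 rats of the 6-month pulegone study, and bars are group means; Slc25a30 and Kcnk2 each have 1 pulegone rat above 7.

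Genes of the ER chaperones and the unfolded protein response were read next. Of 21 measured members, 11 were higher in the 12-month rats and 1 lower, and 9 did not pass. That is 57.1% that passed, against 25.7% of all genes (16.3% higher, 9.44% lower). The 11 include Stt3a, whose probes disagree, as given above. The median difference was 0.919, against 0.0042 over all genes tested. Hsp90b1, the HSP90 of the ER, had scores of 0.503, 0.818, 1.61, 0.917 and 0.724 in the 12-month rats, against -2.01, -1.64, -1.49, -2.42 and -2.35 in the pulegone rats. Hspa5, its HSP70 partner and the main sensor-bound chaperone, stood at 1.21, 1.32, 1.14, 1.06 and 0.739 in the 12-month rats, against -1.4, -0.367, -0.986, -1.18 and -2.08 in the pulegone rats. Both genes were non-overlapping, with differences of 2.9 (SE 0.28, limma adjusted p 1.56e-08) for Hsp90b1 and 2.3 (SE 0.341, limma adjusted p 8.92e-06) for Hspa5. Herpud1, which links ER membranes to protein degradation, was higher by 2.86 (SE 0.39, limma adjusted p 2.63e-06). The mean score of the list ran from 0.617 to 0.965 in the 12-month rats, against -0.509 to -0.253 in the pulegone rats.

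The promoters of the ER list were searched for the ER stress element, the site through which the unfolded protein response is known to act. It was taken as CCAAT and CCACG spaced by 9 bases, on both strands, within the 300 bases from 250 before to 50 after each RefSeq start. The element was found in 22 of 33469 promoters (0.0657%), and in 6 of the 20 genes of the list with a promoter entry: Hsp90b1, Hspa5, Calr, Canx, Creld2 and Dnajc3, named here for the match. Of the 11 members that were higher, all with an entry, 5 held it. A match is a description of these letters and not evidence of binding. The promoters of the chaperone pair with per-rat values above follow, 5′ to 3′ on the gene's strand, from RefSeq (GRCr8, chr7:23012244-23012543, minus strand for Hsp90b1; GRCr8, chr3:38452766-38453065, plus strand for Hspa5), with the matched elements in capitals.
Hsp90b1: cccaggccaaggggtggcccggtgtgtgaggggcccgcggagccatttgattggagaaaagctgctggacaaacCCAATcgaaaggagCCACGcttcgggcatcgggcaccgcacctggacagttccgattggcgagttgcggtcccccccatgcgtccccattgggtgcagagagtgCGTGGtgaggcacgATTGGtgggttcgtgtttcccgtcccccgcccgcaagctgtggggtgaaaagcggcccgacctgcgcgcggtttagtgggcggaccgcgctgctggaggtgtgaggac
Hspa5: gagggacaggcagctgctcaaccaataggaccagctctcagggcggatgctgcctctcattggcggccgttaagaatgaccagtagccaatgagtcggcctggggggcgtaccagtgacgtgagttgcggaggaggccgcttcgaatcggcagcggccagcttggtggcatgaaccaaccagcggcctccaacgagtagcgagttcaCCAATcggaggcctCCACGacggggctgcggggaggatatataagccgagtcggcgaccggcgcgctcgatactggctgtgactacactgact

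Cytosolic and mitochondrial chaperones also leaned to the higher side: of 17 measured, 8 were higher and 1 lower, with a median of 0.512. Besides Hspa1a, the mitochondrial chaperonin Hspd1 was higher by 2.48 (SE 0.313, limma adjusted p 8.72e-07) and the constitutive HSP70 gene Hspa8 by 2.51 (SE 0.487, limma adjusted p 0.000258). The exception was Hspe1, the small partner of Hspd1 in the same folding chamber, which was lower, with a difference of -1.35 (SE 0.244, limma adjusted p 0.000107). Mean scores of the list ran from 0.466 to 0.823 in the 12-month rats, against -0.366 to -0.141 in the pulegone rats, with no overlap.

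Plasma proteins made by hepatocytes followed. Of 24 acute phase proteins, 10 were higher and 1 lower, with a median of 1.03; of 26 complement and coagulation genes, 12 were higher and 1 lower, with a median of 0.693. Hpx, the heme carrier hemopexin, was higher by 3.14 (SE 0.362, limma adjusted p 2.24e-07), and Cp, the copper-carrying ferroxidase ceruloplasmin, by 2.66 (SE 0.321, limma adjusted p 4.44e-07). The C-reactive protein gene Crp was higher by 2.62 and the fibrinogen chain Fga by 3.38. Fga had scores of 0.28, 1.04, 2.88, -0.024 and 0.563 in the 12-month rats, against -1.65, -2, -2.16, -2.86 and -3.5 in the pulegone rats, so that the groups did not overlap. Among clotting factors, F10 was higher by 2.32 and the anticoagulant Proc by 3.03 (SE 0.417, limma adjusted p 3.1e-06). Mean scores of the acute phase list ran from -0.513 to 0.329 in the 12-month rats, against -1.84 to -0.549 in the pulegone rats, so the groups did not overlap, but the lowest 12-month rat lay close to the highest pulegone rat.

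The wider list of hepatocyte secreted and identity genes had 10 higher and 2 lower of 36, with a median of 0.716. The galactose-terminal glycoprotein receptor Asgr1 was higher by 2.93 (SE 0.36, limma adjusted p 5.4e-07), and the apolipoprotein Apoa4 by 2.95. Iron and heme genes had 10 higher and 1 lower of 24, with a median of 0.39. Hfe and Tfr2, the membrane proteins by which hepatocytes sense iron, were higher by 2.13 (SE 0.33, limma adjusted p 1.53e-05) and 2.5 (SE 0.436, limma adjusted p 6.89e-05), but the other Tfr2 probe stood at -0.225 (limma adjusted p 0.576) and did not pass.

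The antigen presentation genes that passed were all higher. Of 22 genes of major histocompatibility complex (MHC) class I presentation and the interferon response, 11 were higher and 0 lower, with a median of 0.9. Psmb8, a subunit of the immunoproteasome, stood at 0.632, 0.499, 0.118, 0.679 and 1.55 in the 12-month rats, against -1.86, -1.26, -1.15, -1.44 and -2.71 in the pulegone rats. Tap2, a subunit of the peptide transporter into the ER, scored 0.971, 0.648, 0.906, 0.254 and 0.958 in the 12-month rats, against -1.25, -2.64, -0.956, -1.31 and -1.93 in the pulegone rats. Neither overlapped between groups, with differences of 2.38 (SE 0.328, limma adjusted p 3.18e-06) for Psmb8 and 2.36 (SE 0.345, limma adjusted p 7.58e-06) for Tap2. Stat2, a transcription factor of the type I interferon signal, was higher by 2.75 (SE 0.321, limma adjusted p 2.56e-07) on the probe used, while 2 other Stat2 probes were at -0.188 and 0.731 and did not pass. Igtp, an interferon-induced GTPase, was higher by 1.32 on the probe used and by 0.077 on the other, which did not pass. Of 12 MHC class II genes, 6 were higher and 0 lower, with a median of 0.49: the lysosomal protease Lgmn was higher by 2.44 (SE 0.229, limma adjusted p 1.09e-08), the invariant chain Cd74 by 1.18 (SE 0.215, limma adjusted p 0.000124) and RT1-Da, a class II chain, by 1.1 (SE 0.279, limma adjusted p 0.00391).

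Kupffer cell and macrophage markers had 10 higher and 1 lower of 27 measured, with a median of 0.411. Besides Marco, Cd14, the lipopolysaccharide co-receptor, scored 1.6, 0.131, 0.902, 0.513 and 0.027 in the 12-month rats, against -1.32, -1.1, -1.04, -1.2 and -1.83 in the pulegone rats, with a difference of 1.93 (SE 0.272, limma adjusted p 4.15e-06). Cd5l, a soluble macrophage protein, was higher by 2.66 (SE 0.394, limma adjusted p 8.95e-06) and the lipid-sensing receptor Trem2 by 1.71 (SE 0.27, limma adjusted p 1.94e-05). Mean scores of the list ran from 0.123 to 0.593 in the 12-month rats, against -0.829 to -0.309 in the pulegone rats, with no overlap. In whole liver, more cells of a type and more RNA per cell cannot be told apart, and the part of macrophage numbers in the antigen presentation genes was not tested. Of the other blood and immune cell lists, T and NK cell markers had 2 higher and 3 lower of 30, neutrophil and cytokine genes 2 higher and 1 lower of 16, red cell and blood markers 2 higher and 1 lower of 10, and B and plasma cell markers none of 4. Their mean scores ran from -0.0695 to 0.201 in the 12-month rats, against -0.257 to 0.19 in the pulegone rats for T and NK cells, and from -0.484 to -0.0766 in the 12-month rats, against -0.528 to -0.212 in the pulegone rats for red cells. The T cell co-receptor Cd8a was lower, with a difference of -0.934 (SE 0.187, limma adjusted p 0.000384) and the granzyme Gzma of -1.41 (SE 0.372, limma adjusted p 0.00544), while Cd7 was higher by 2.36 (SE 0.4, limma adjusted p 4.96e-05) on the probe used and stood at -0.0874 (limma adjusted p 0.932) on the other, which did not pass.

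Among non-parenchymal structures, bile duct markers had 4 higher and 0 lower of 12, with Epcam, an epithelial adhesion protein, higher by 1.91 (SE 0.382, limma adjusted p 0.000363). Stellate cell and matrix genes had 5 higher and 1 lower of 32 and a median of -0.113. That is 18.8% that passed, below the 25.7% of all genes, and 13 of the 32 had a difference above 0. Among the members that passed, Ccn2, Tgfbi and Vim were higher by 4.35, 1.69 and 1.33. Endothelial markers had 2 higher and 1 lower of 17. The sinusoidal hyaluronan receptor Lyve1 was higher by 1.46 (SE 0.215, limma adjusted p 7.7e-06), and Fcnb, a ficolin, by 1.23. Fcnb was counted only through a synonym of a listed symbol and was not itself chosen as an endothelial marker. Vwf, the von Willebrand factor gene of larger vessels, was lower, with a difference of -2.02 (SE 0.333, limma adjusted p 3.46e-05) on the probe used, while its other 3 probes were at 0.140, -0.371 and 0.288 and did not pass.

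**Figure D3:**
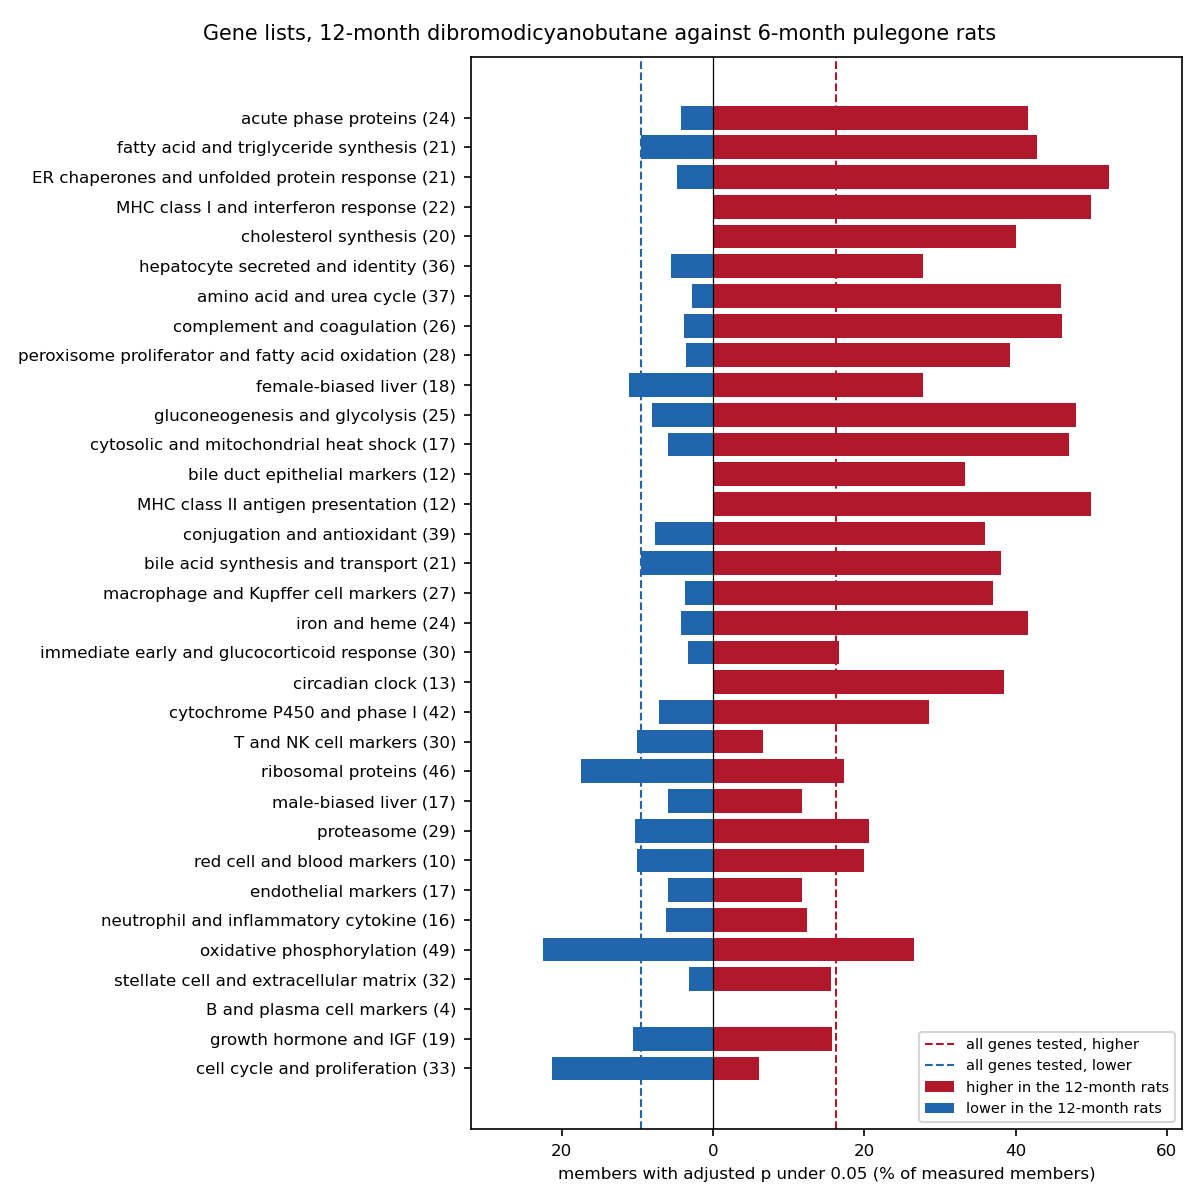
Bars give the share of each list's measured members (number in brackets) that passed limma's adjusted p of 0.05, red to the right for higher and blue to the left for lower in the 12-month dibromodicyanobutane rats than in the 6-month pulegone rats; dashed lines are the shares over all 9650 genes (16.3% higher, 9.44% lower). Lists are ordered by their median difference, from acute phase proteins at 1.03 to cell cycle genes at -0.37.

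The lipid synthesis genes that passed were mostly higher. Cholesterol synthesis had 8 higher and 0 lower of 20 members, with a median of 0.773; fatty acid and triglyceride synthesis had 9 higher and 2 lower of 21, with a median of 1.02. Thrsp, the thyroid-responsive factor of lipogenesis, had scores of 1.53, 0.089, 0.958, 1.12 and 2.09 in the 12-month rats, against -2.09, -2.76, -0.905, -1.3 and -1.84 in the pulegone rats. It was higher by 2.94 (SE 0.505, limma adjusted p 5.66e-05), and Pmvk, a kinase of the mevalonate pathway, by 2.74 (SE 0.367, limma adjusted p 2.1e-06). Genes of fatty acid oxidation and of the peroxisome proliferator response had 11 higher and 1 lower of 28 and a median of 0.649. Ehhadh, the bifunctional enzyme of peroxisomal oxidation, was higher by 1.93 (SE 0.254, limma adjusted p 1.69e-06) and Acadm, the medium-chain dehydrogenase of mitochondria, by 1.79 (SE 0.336, limma adjusted p 0.000174). Lists of synthesis and of oxidation both had more higher than lower members.

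Genes of nitrogen and sugar metabolism leaned the same way. Of 37 amino acid and urea cycle genes, 17 were higher and 1 lower, with a median of 0.696, and of 25 genes of gluconeogenesis and glycolysis, 12 were higher and 2 lower, with a median of 0.567. Ass1, the urea cycle enzyme that makes argininosuccinate, scored 1.12, -0.953, 2.12, 0.421 and -0.501 in the 12-month rats, against -4.12, -2.96, -1.88, -2.73 and -3.47 in the pulegone rats. Its difference was 3.48 (SE 0.532, limma adjusted p 1.31e-05), and that of Ftcd, which breaks down histidine products, 2.37 (SE 0.36, limma adjusted p 1.17e-05). Tpi1, a glycolytic isomerase, was higher by 1.63 (SE 0.255, limma adjusted p 1.68e-05) and the glycogen branching enzyme Gbe1 by 1.63 (SE 0.26, limma adjusted p 2.15e-05). The other Gbe1 probe passed in the opposite direction, at -0.872 (limma adjusted p 0.00577), so the probes of this gene disagree. Ugp2, which makes UDP-glucose, was higher by 3.12 on the probe used but stood at -0.236 on the other (limma adjusted p 0.654).

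Bile acid genes had 8 higher and 2 lower of 21, with the side-chain hydroxylase Cyp27a1 higher by 2.5 (SE 0.343, limma adjusted p 3.08e-06) and the uptake transporter Slco1b2 by 1.44 (SE 0.273, limma adjusted p 0.000194). Cytochrome P450 and other phase I genes had 12 higher and 3 lower of 42, with a median of 0.152; the epoxide hydrolase Ephx1 was higher by 3.04 (SE 0.44, limma adjusted p 6.55e-06). Conjugation and antioxidant genes had 14 higher and 3 lower of 39, among them catalase, Cat, at 1.82, the quinone reductase Nqo1 at 2.3 and the glutathione transferase Gsta4 at 2. Male-biased genes had 2 higher and 1 lower of 17, with a median of -0.0026 and rat means from -0.498 to 0.349 in the 12-month rats, against -0.356 to 0.753 in the pulegone rats, which overlap. Female-biased genes had 5 higher and 2 lower of 18, with a median of 0.641, and the prolactin receptor Prlr and the steroid hydroxylase Cyp2a1 were higher by 2.96 and 2.99. The growth hormone and IGF list had 3 higher and 2 lower of 19. That is 26.3% that passed, near the 25.7% of all genes, so the list did not stand out; the male-biased list, at 17.6%, was below that share. Among the members that passed, Cish and Socs2, feedback inhibitors of growth hormone signalling, were lower, with differences of -1.2 (SE 0.245, limma adjusted p 0.00049) and -2.28 (SE 0.64, limma adjusted p 0.00867). Socs2 did not pass on recovered log ratios (limma adjusted p 0.062). Igfbp1, an insulin-responsive binding protein of IGF, was higher by 3.27 (SE 0.779, limma adjusted p 0.00223), but did not pass when the 10 arrays of these groups were fitted alone (limma adjusted p 0.0641).

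The large protein complexes were mixed. Oxidative phosphorylation had 13 higher and 11 lower of 49, ribosomal proteins 8 higher and 8 lower of 46 and the proteasome 6 higher and 3 lower of 29, with medians of -0.0968, 0.111 and -0.0148. Within the respiratory chain, Uqcrfs1, the iron-sulfur subunit of complex III, was lower, with a difference of -1.87 (SE 0.234, limma adjusted p 6.87e-07), while Ndufv3, of complex I, was higher by 2.55 (SE 0.349, limma adjusted p 2.84e-06). Among ribosomal proteins Rps3 was higher by 1.85 (SE 0.168, limma adjusted p 1.09e-08) and Rpl39 lower with a difference of -2.42 (SE 0.327, limma adjusted p 2.41e-06). The lists thus held large differences in opposite directions and a median near that of all genes.

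Cell cycle and proliferation genes leaned to the lower side, with 2 higher and 7 lower of 33 and a median of -0.37. Cdk1, the kinase of mitotic entry, scored -0.448, 0.167, -1.02, 0.2 and 0.426 in the 12-month rats, against 1.4, 1.98, 1.12, 1.7 and 1.72 in the pulegone rats. It was lower, with a difference of -1.72 (SE 0.313, limma adjusted p 0.000123) and the mitotic phosphatase Cdkn3 of -1.98 (SE 0.384, limma adjusted p 0.000261). Cdkn1a, the p21 inhibitor of the cycle, went the other way: it was higher by 1.74 (SE 0.255, limma adjusted p 7.75e-06), by 1.40 on a second probe (limma adjusted p 0.00158), and stood at 0.730 on a further probe that did not pass. Mean scores of the list ran from -0.499 to 0.108 in the 12-month rats, against 0.141 to 0.447 in the pulegone rats. Circadian clock genes had 5 higher and 0 lower of 13, with Bmal1 higher by 1.24 (SE 0.278, limma adjusted p 0.00128) and Nampt by 2.09 (SE 0.407, limma adjusted p 0.000276); the other Nampt probe stood at 1.59 (limma adjusted p 0.104) and did not pass. The E-box CACGTG, the element of the clock, was found on either strand in 2 of 11 clock genes with a promoter entry, Tef and Bhlhe40, against 2148 of 33469 promoters (6.42%). Immediate early and glucocorticoid-responsive genes had 5 higher and 1 lower of 30, with a median of 0.343. Over all genes 16.3% were higher and 9.44% lower, so the count of higher members did not stand out. Among those that passed, Cebpd and Gadd45b were higher by 2.18 and 1.42, and Tsc22d3 as given above.

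The 12-month rats of the other study, bis_2-chloroethoyl_methane, allowed a test at the same age: if the difference from the pulegone rats were the same in both studies, the 12-month groups would not differ from each other. This comparison shares the dibromodicyanobutane rats with the first. Of 9650 genes, 4326 passed (44.8%; over probes, 43.9%), 2231 higher in the dibromodicyanobutane rats (23.1%) and 2095 lower (21.7%). That is more than the 2484 that passed between the dibromodicyanobutane and pulegone rats, which differ in both study and age. Pairs of arrays from these 12-month groups had a median correlation of -0.090 over all probes and a lowest of -0.331, and the labels give all of them the same dyes. Of the 24 leading genes, 17 also differed between the 12-month studies on the probe used, 11 of the 12 higher ones and 6 of the 12 lower ones. The 24 genes had been chosen for extreme differences in these same dibromodicyanobutane rats. A gap in the same direction is therefore partly set by that choice. Hspa1a scored -1.32, -1.29, -0.27, 1.03 and -0.653 in the chloroethoyl_methane rats, below every dibromodicyanobutane rat, a difference of 3.6 (SE 0.548, limma adjusted p 2.83e-06). Il6r scored -0.49, -1.94, -2.13, -0.784 and -2.2 there, also with no overlap, a difference of 4.14 (SE 0.437, limma adjusted p 6.96e-09). In these genes the chloroethoyl_methane rats lay nearer the younger pulegone rats than the rats of their own age.

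The 7 leading genes that did not pass between the 12-month studies were Ccn2, Nrep, Slc25a30, Kcnk2, Marveld1, Ube2c and Fabp7. For Nrep the chloroethoyl_methane rats had scores of -0.619, -0.385, -2.76, -0.371 and -3.74, overlapping the dibromodicyanobutane rats, with a difference of -1.18 (SE 0.735, limma adjusted p 0.204). Fabp7 scored -2.55, 0.034, -1.92, -2.12 and -2.47 in the chloroethoyl_methane rats, likewise below all pulegone rats, with a difference of 1.3 (SE 0.664, limma adjusted p 0.115). Between the chloroethoyl_methane and the pulegone rats, 31.4% of genes passed (16.6% higher, 14.8% lower; over probes, 30.3%). In that comparison 5 of these 7 genes passed, with differences of -4.19 for Nrep, -4.37 for Fabp7, -4.29 for Marveld1, -3.26 for Kcnk2 and -2.15 for Ube2c. Ccn2 at 1.79 (limma adjusted p 0.243) and Slc25a30 at -2 (limma adjusted p 0.334) did not pass. The dibromodicyanobutane minus pulegone differences given above share the pulegone rats with these. The 7 genes were also picked for a large difference from these pulegone rats and for not passing between the 12-month studies. Their passing here was therefore largely set by that choice and is no separate support.

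Of the 10 genes named by the same rule for the 12-month studies, Tsc22d3 and Arl6ip5 were also among the 24 leading genes of the first comparison; the other Tsc22d3 probe differed between these studies by -0.306 (limma adjusted p 0.583). Akirin2, a nuclear cofactor of innate immune transcription, scored -5.15, -8.32, -4.61, -9.77 and -8.77 in the dibromodicyanobutane rats, against -1.99, -0.236, 4.03, 2.09 and 4.38 in the chloroethoyl_methane rats. Sox15, a transcription factor, stood at -4.86, -7.18, -2.6, -8.31 and -6.83 in the dibromodicyanobutane rats, against -0.427, 0.381, 4.5, 3.05 and 5.1 in the chloroethoyl_methane rats. The differences were -8.98 (SE 1.44, limma adjusted p 6.52e-06) for Akirin2 and -8.47 (SE 1.27, limma adjusted p 2.19e-06) for Sox15, with that of Irf2bpl at -8.64, Adcy7 at -8.34 and Mmp15 at -8.15. The other Adcy7 probe stood at 0.271 and did not pass (limma adjusted p 0.739), and the other Mmp15 probe at -1.27 (limma adjusted p 1.23e-05). From lowest to highest, the chloroethoyl_methane rats stood in the same order in all 5 genes, and so did the pulegone rats. The 5 differences are therefore not separate observations, and the reason was not tested. All 5 of these genes were low in the pulegone rats as well, Akirin2 at -6.35, -3.86, -3.07, -4.45 and -5.9, and none of the 5 passed between the dibromodicyanobutane and pulegone rats. On the higher side, Gtf3c6, a subunit of a transcription factor of RNA polymerase III, differed by 5.24 (SE 0.508, limma adjusted p 1.53e-09), Bst2, the antiviral tetherin, by 4.58 (SE 0.575, limma adjusted p 1.29e-07), and Srp54a, of the signal recognition particle, by 4.42 (SE 0.547, limma adjusted p 9.97e-08). The other Srp54a probes differed by 1.10 and 3.78. Bst2 had scores of 0.185, 2.44, 1.02, 2.69 and 3.06 in the dibromodicyanobutane rats, against -2.54, -0.472, -3.89, -2.74 and -3.88 in the chloroethoyl_methane rats.

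By list, the ER chaperones had 10 higher and 2 lower of 21 in the dibromodicyanobutane minus the chloroethoyl_methane rats, heat shock genes 9 higher and 2 lower of 17, and MHC class I and interferon genes 9 higher and 1 lower of 22. Oxidative phosphorylation, ribosomal proteins and the proteasome, mixed between the dibromodicyanobutane and pulegone rats, had more higher than lower members here. Oxidative phosphorylation had 23 higher and 6 lower of 49, ribosomal proteins 24 higher and 10 lower of 46 and the proteasome 14 higher and 3 lower of 29. Macrophage markers did not, with 4 higher and 5 lower of 27. Male-biased genes had a median of 1.42 between the 12-month studies, with rat means of -0.498 to 0.349 in the dibromodicyanobutane rats, against -1.87 to -0.242 in the chloroethoyl_methane rats. Against the pulegone rats, macrophage markers had 10 higher and 0 lower in the chloroethoyl_methane rats, beside 10 higher and 1 lower in the dibromodicyanobutane rats, and ribosomal proteins 2 higher and 23 lower beside 8 higher and 8 lower. Several of the counts between the 12-month studies depend on the sign of the arrays. With the chloroethoyl_methane arrays turned, ER chaperones had 10 higher and 3 lower, heat shock genes 5 higher and 6 lower, MHC class I and interferon genes 3 higher and 7 lower, the proteasome 4 higher and 7 lower, macrophage markers 8 higher and 3 lower, and male-biased genes a median of -0.708. Oxidative phosphorylation then had 15 higher and 9 lower, and ribosomal proteins 11 higher and 9 lower. Of the 24 leading genes, 12 then passed between the 12-month studies, and 33.8% of genes passed in all.

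**Figure D4:**
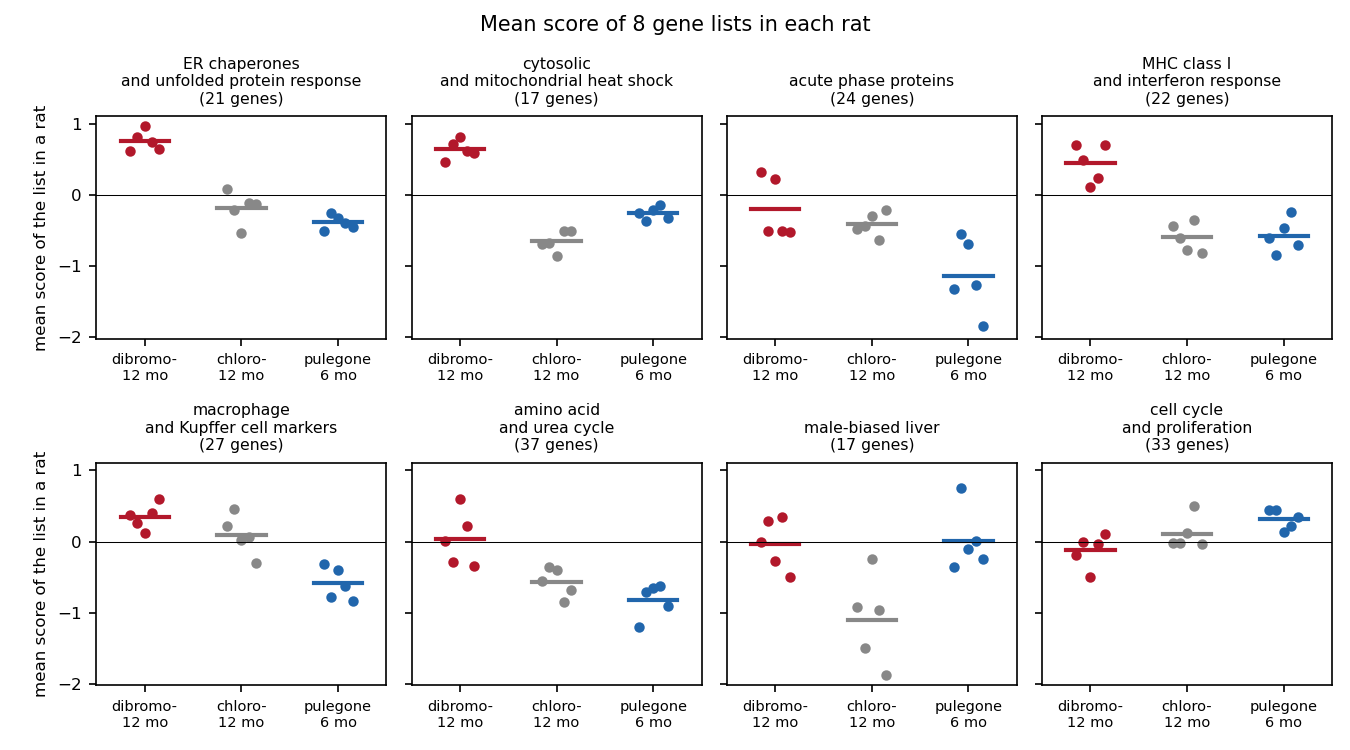
Each point is the mean score of a list's measured genes in 1 rat, for the 12-month dibromodicyanobutane rats (red), the 12-month chloroethoyl_methane rats (grey) and the 6-month pulegone rats (blue), 5 rats each, with bars for group means. In the ER, heat shock and MHC class I lists every grey point lies below every red one; in the macrophage list the grey points overlap the red.

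A 12-month against 6-month difference that shares no rat with the first was that of the chloroethoyl_methane rats minus the mean of the DMPT and Pyrogallol rats, whose titles write the age in another style. Its 12-month and 6-month arrays correlated at medians of 0.020 with DMPT and 0.046 with Pyrogallol. It had 1618 genes higher (16.8%) and 1853 lower (19.2%) of 9650, or 36% in all (34.2% of probes). Of the 1573 genes higher in the dibromodicyanobutane rats than in the pulegone rats, 233 were higher (14.8%) and 636 lower (40.4%) in these other rats. Of the 911 genes lower, 372 were higher (40.8%) and 123 lower (13.5%). In each set, the genes that passed in the opposite direction outnumbered those that passed in the same direction. When the signs of the 10 DMPT and Pyrogallol arrays were reversed (chosen after seeing the data), since they hold pairs with the dibromodicyanobutane and pulegone arrays that correlate below -0.3, 47.5% of genes passed. Of the genes higher in the first comparison 52 (3.31%) were then higher and 1094 (69.5%) lower, and of those lower 531 (58.3%) were higher and 28 (3.07%) lower. The rats differ between these comparisons, but the pool on every array is the same. Amino acid and urea cycle genes had 2 higher and 16 lower of 37 in the other rats, beside 17 higher and 1 lower in the first comparison, and hepatocyte genes 4 higher and 17 lower of 36, beside 10 higher and 2 lower. Macrophage markers had 13 higher and 2 lower in the other rats, beside 10 higher and 1 lower, and ER chaperones 9 higher and 4 lower, beside 11 higher and 1 lower. With those arrays turned, amino acid and urea cycle genes had 6 higher and 16 lower, hepatocyte genes 9 higher and 12 lower, macrophage markers 3 higher and 10 lower and ER chaperones 4 higher and 9 lower.

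The leading genes differed from this. Of the 24, 10 passed in the same direction in the other rats, 14 did not pass and none passed in the opposite direction. This too rests on the sign of the arrays: with those arrays turned, 11 of the 12 higher genes passed as lower, 3 of the 12 lower genes passed as higher, and none passed in the same direction. As deposited, Nrep had a difference of -4.32 (SE 0.637, limma adjusted p 2.14e-06) in the other rats, Ccn2 of 4.47 (SE 0.972, limma adjusted p 0.000464) and Fabp7 of -2.69 (SE 0.575, limma adjusted p 0.000374). Stt3a differed by 2.46 (SE 0.384, limma adjusted p 5.22e-06) on the probe used, while its other probe did not differ in the first comparison, as given above. Hspa1a, the highest gene of the first comparison, stood at 1.09 (SE 0.474, limma adjusted p 0.076), and Kcnk2 at 1.08 (SE 0.847, limma adjusted p 0.354). Ube2c at 0.565 (limma adjusted p 0.482) and Rpa3 at 0.19 (limma adjusted p 0.691) did not pass either. Among the chaperones, Hsp90b1 and Hspa5 were lower in the other rats, with differences of -1.44 and -1.55. Cp was higher, by 2.01, but the plasma protein lists were mixed there. Acute phase proteins had 5 higher and 6 lower of 24, beside 10 higher and 1 lower in the first comparison. Complement and coagulation genes had 7 higher and 11 lower of 26, beside 12 higher and 1 lower. With the DMPT and Pyrogallol arrays turned, these lists had 5 higher and 10 lower, and 3 higher and 15 lower. The same 12-month dibromodicyanobutane rats minus the DMPT and Pyrogallol rats had 5542 genes that passed (57.4%; over probes, 56.3%), 2732 higher (28.3%) and 2810 lower (29.1%), which shares its 12-month rats with the first comparison. With the signs of those 6-month arrays reversed, 17.9% of genes passed. Without that reversal Hspa1a differed by 4.69, Il6r by 5.26 and Kcnk2 by 0.164 in this comparison, and Nrep stood at -5.5.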

How the data were processed

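Liver RNA of 38 rats was measured on Agilent 2-colour rat oligonucleotide arrays and read with Feature Extraction, per the submitters' design text. The deposited table holds 1 score per probe and array; no source used here states how the scanner output became scores, or a genome build. The medians of the columns lay between -0.076 and 0.023 in the 10 arrays compared. Scale, centring and log base before standardization stay unknown, direction was read from the dyes in the labels, how far signals stood over background cannot be seen, and precision is limited by the number of arrays. The tests had been planned for log ratios and were run in the same form on the scores as deposited.

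Of 20277 probes, 12594 had 1 gene symbol in GEO's platform annotation, 5 had several and 7678 had none listed. RefSeq gene IDs gave current symbols for 12572 probes and 9650 genes (GRCr8 table). For the 2139 genes with several probes, the probe with fewest missing values, then with the largest SD over all arrays, stood for the gene. Linear models with eBayes moderation were fitted in limma 3.58.1 (R 4.3.3; two-sided tests, Benjamini-Hochberg over all probes, threshold 0.05) on all 38 arrays with 8 groups of study and age, and no sample was dropped; 10 probes lacked a value on some array. The fit was tested on simulated data. Rats are numbered in the order of the samples, and each rat is a separate animal by its title.

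The genes named first were the 12 highest and 12 lowest that passed with no overlap of 5 against 5 rats, for the 12-month studies the 5 highest and 5 lowest, and in each of 33 lists (1040 symbols, 782 measured) up to 4 members with the lowest adjusted p. Members and lists were chosen with earlier results of these data known, so lists are described by counts and medians beside those of all genes, with no test. Alternatives were the arrays in the fit, recovered log ratios, median centring, quantile normalization, the more variable probes, array weights, the mean over a gene's probes, each rat left out, and arrays turned in sign. Figures were drawn with matplotlib 3.10.9.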

Additional observations from a re-analysis of the deposited data

Results flagged for a closer look

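Chance alone would mark about 1 in 20 groups as holding a rat far from the others, and 48 groups (24 genes in the 12-month and the 6-month rats) were examined. One was marked: Kcnk2 in pulegone replicate 5, at a score of 7.031, where the median of the other 4 pulegone rats was 2.769. Without that rat Kcnk2 still passed, as given above.

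For 17 of the 24 leading genes, the difference from the pulegone rats was not the same in both 12-month studies, by limma's test of the dibromodicyanobutane minus the chloroethoyl_methane rats. The 24 genes had been chosen on the same dibromodicyanobutane rats, so a gap in the same direction is partly set by that choice. Higher in the dibromodicyanobutane rats were Tsc22d3 by 4.53, Arl6ip5 by 4.36, Il6r by 4.14, Mafk by 3.71, Cpne8 by 3.62, Hspa1a by 3.60, Stt3a by 3.57, Marco by 2.78, Kcnh5 by 2.65, Entpd5 by 2.64 and Cfl1 by 2.58. Lower in the dibromodicyanobutane rats were Chpf2 at -8.12, Abcc10 at -5.24, Ncor1 at -3.07, Adcy10 at -2.43, Vsnl1 at -2.28 and Rpa3 at -1.46. The largest limma adjusted p among the 17 was 0.0249, for Ncor1. These values are for the probe used. The other probes of Chpf2 (-0.432), Vsnl1 (-0.372), Stt3a (-0.218), Marco (0.704) and Tsc22d3 (-0.306) did not pass (limma adjusted p 0.173, 0.144, 0.0950, 0.253 and 0.583). Those of Arl6ip5 (5.03) and Cpne8 (2.03) passed in the same direction. The other Ncor1 probes ran from -1.44 to 0.235, and only those at -1.44 passed.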

How the results depend on the processing

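No paired analysis was possible because the labels give no replicate numbers and each study holds rats of its own. Among the alternatives run, the number of probes that passed between the dibromodicyanobutane and pulegone rats stayed within 1.5 times the 4733 reported except on the more variable probes, where 10138 of the 20277 probes were tested: there it was 2256. On those probes the other comparisons gave 3886 (dibromodicyanobutane minus chloroethoyl_methane, 56.4% higher instead of 44.9%), 2548 (chloroethoyl_methane minus pulegone, 44.3% higher instead of 57.0%), 3544 (chloroethoyl_methane minus DMPT and Pyrogallol) and 5610 (dibromodicyanobutane minus DMPT and Pyrogallol, 58.3% higher instead of 45.6%). With array weights 6545 probes passed between the dibromodicyanobutane and pulegone rats, 49.3% of them higher instead of 55.7%, and with only their 10 arrays 4309. Leaving out 1 rat gave 3670 (without pulegone replicate 5) to 4720 for that comparison, 8128 to 8945 between the 12-month studies, 4990 to 6668, 5909 to 7169 and 10560 to 11378 for the other 3 in the order above. All 24 leading genes passed in every setting except Chpf2, Ncor1 and Abcc10 on recovered log ratios (21 passed) and Ncor1 without 3 single rats (limma adjusted p 0.0506 to 0.0642). Of the list members named, Igfbp1 (fit of the 10 arrays alone, limma adjusted p 0.0641) and Socs2 (recovered log ratios, limma adjusted p 0.062) lost the call in 1 setting each. List members that passed numbered 298, and 250 to 289 with 1 rat left out.

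Alternatives added after seeing the data turned arrays in sign, since some pairs correlate below -0.3. With the DMPT and Pyrogallol arrays turned, 3216 probes passed against the dibromodicyanobutane rats, instead of 11413 (54.2% higher instead of 45.6%), and 9336 passed in the chloroethoyl_methane rats minus these, instead of 6939 (59.1% higher instead of 48.7%); the cause was not tested. With the chloroethoyl_methane arrays turned, 6554 probes passed between the 12-month studies, instead of 8892, Bst2 stood at -0.824 (limma adjusted p 0.284), a change of direction, and Gtf3c6, Tsc22d3 and Srp54a no longer passed.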
